A study of Mus musculus with 18 samples.

Results

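The ribosomal protein (RP) genes of the cytosolic ribosome were followed in mouse dendritic cells (DCs) that had been placed in collagen gels or kept in suspension. Genes were taken by symbol (Rpl or Rps with a number, and Rplp0, Rplp1, Rplp2, and Rpsa), by a protein-coding biotype, and by a mean of at least 1 CPM (counts scaled to a common library size) over all libraries. Of 29875 genes in the count table, 83 protein-coding genes carried such a symbol and 73 of these reached 1 CPM. Among those that did not were Rps6, Rps13, Rps29, Rpl10l, Rpl23a, Rpl24, Rpl36a, Rpl38, and Rpl39l. Just above the limit were Rpl5, with a mean of 1.02 CPM, and Rps16, with 1.25 CPM, and just below it were Rpl39l with 0.919 CPM and Rps13 with 0.884 CPM. All 73 genes passed the filter on low counts.

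The cells were grown from the bone marrow of wild-type C57Bl6/J mice aged 8 to 12 weeks with granulocyte-macrophage colony-stimulating factor and matured on day 8 with lipopolysaccharide at 200 ng/ml for 24 hours. They were loaded into migration chambers, and RNA was extracted 5 hours after a gradient of the chemokine CCL19 had been introduced. Gels held 1.7, 2.6, 3.5, or 4.4 mg/ml collagen, and 2 suspension groups had no collagen, with 3 replicates in each of the 6 groups. The suspension groups were titled plus CCL19 and without CCL19, but their library names state the opposite in every replicate, so the titles are used as names only, and differences between these groups are not read as effects of CCL19. The library names of each replicate number carry 1 date and 1 sequencing lane, and each number holds every group once. The cells were cultured marrow, not sorted DCs. Whether a changed level came from more RNA per cell or from another mix of cells cannot be told apart in such bulk samples.

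Ribosomes are built from ribosomal RNA and RPs, which are needed in matched amounts. Cells set RP output mostly at translation: RP mRNAs begin with a cytosine followed by a run of pyrimidines, and the kinase mTOR and the RNA-binding protein Larp1 act through this run. DCs in the mature state lower their protein synthesis with time, while migration and antigen presentation go on. RP genes are short, highly expressed in most cells, and have left many processed pseudogenes in the mouse genome, so short reads from their mRNAs often match several places.

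Libraries held 13062944 to 28059839 counts. Markers of DCs were abundant in every library, with summed levels of 17400 to 50300 CPM in suspension and 23200 to 47100 CPM in collagen. Markers of eosinophils were higher in suspension, where they summed to 132 to 1350 CPM (median 369) against 15.9 to 142 CPM (median 41.7) in collagen, and 7 of 7 tested eosinophil markers were lower in collagen. Markers of neutrophils summed to 715 to 9860 CPM and 970 to 5640 CPM, and 3 of 10 were lower in collagen. Basophil and mast cell markers summed to 17.1 to 129 and 13.5 to 141 CPM, macrophage and monocyte markers to 733 to 3060 and 566 to 3130 CPM, B cell markers to 0.912 to 14.8 and 0.627 to 7.67 CPM, and erythroid markers to 1.06 to 5.63 and 1.59 to 6.87 CPM, and no tested marker of these lists differed. Of the 10 DC markers 1 was higher and 1 lower. In the test of collagen against suspension described below, 7.78% of all genes were higher and 12.4% lower. T and NK cell markers reached at most 0.868 CPM. The part of these other cells in the RP differences was not tested.

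RP genes with more sequence that occurs nowhere else had higher counts. Each 50-base window, the read length of these libraries, was looked up in all annotated transcripts of GRCm38, and a window was called unique if no transcript of another gene held it. Rpl8, a protein of the large subunit (chromosome 15, 76904078 to 76906314, plus strand), had 91.3% unique coding windows and a level per transcript length of 1240 CPM per kb, among the 5 highest of the 73. Rpl5, which carries the 5S ribosomal RNA with Rpl11 (chromosome 5, 107900502 to 107909005, plus strand), had 0% and the lowest level, 0.486 CPM per kb. A stretch of each coding sequence is shown, at the length of 1 read. The Rpl5 window also occurs in 6 other genes, which are all pseudogenes, and the Rpl8 window in 0 other genes. No base is in capitals because each window matches or fails to match as a whole.
Rpl5, coding bases 691 to 740: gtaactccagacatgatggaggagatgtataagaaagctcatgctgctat
Rpl8, coding bases 362 to 411: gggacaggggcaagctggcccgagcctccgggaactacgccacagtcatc

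Genes of the same particle differed widely in counts. At the high end stood Rplp1, a protein of the acidic stalk, at 2510 CPM per kb, Rps15 at 1700, and Rplp0, the base of the stalk, at 1260 CPM per kb. At the low end, Rps16 lay at 1.15, Rps23 at 1.71, and Rpl21 at 1.86 CPM per kb. Among the 83 coding genes, 15 had at least 50% unique coding windows, with a median of 414.3 CPM per kb, against 32.78 CPM per kb in the 68 others. The Spearman correlation of unique coding windows with CPM per kb was 0.6831 across these 83 genes, which share libraries and depth and are not independent replicates. In 30 of them no coding window was unique, and Rps6, the substrate of the S6 kinases, was among these with 0.348 CPM and 14 pseudogenes that share its windows. Rpl3l, with 100% unique windows and 5.71 CPM per kb, went against the pattern and is known as a form of striated muscle. Rpl39l, with 100% unique coding windows and 0.919 CPM, and Rpl10l, with 87.5% and 0.0442 CPM, also went against it. How reads that match several genes were counted is not given in the sources used here, so the levels of different RP genes cannot be read as an order of their mRNAs. The 73 genes together took 0.873 to 2.07% of the counts of a library, while the 274 listed RP pseudogenes named with -ps took 0.00709 to 0.0163%.

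**Figure D1:**
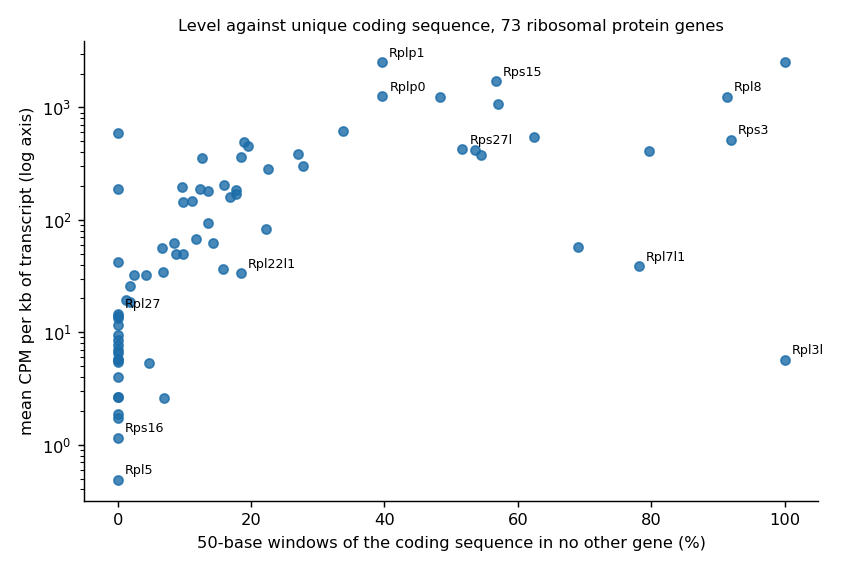
Mean CPM per kb of transcript (log axis) of the 73 RP genes against the share of 50-base coding windows found in no other gene. Rpl5 lies at 0.486 CPM per kb with 0% unique windows and Rpl8 at 1240 CPM per kb with 91.3%, while Rpl3l lies low at 5.71 CPM per kb with 100%.

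What the RP genes share at their starts was described from RefSeq promoter sequences of GRCm38.p6, which matched 56 of the 73 genes with 68 promoters, and the other 17 genes had no entry. Within 20 bases on either side of the annotated start, a run of at least 6 bases made only of C and T on the coding strand occurred in 41 of 68 RP promoters (60.3%) and in 37.5% of all 32851 promoters. On the other strand the shares were 17.6% and 40%. A run beginning exactly at the annotated start occurred in 17.6% of RP promoters and 2.93% of all promoters, and the promoters of mitochondrial RP genes, whose proteins form the ribosome inside mitochondria, had 1.33%. The windows below reach from 10 bases before to 19 bases after the start, with the longest run in capitals. They were chosen to show RP genes with a long run (Rpl13a and Rplp2), RP genes that rose in collagen without one in this window (Rpl27 and Rpl9), and the variants Rpl22l1 and Rps27l. In the Ensembl annotation Rpl27 begins at 101442298 and Rpl9 at 65391444, outside these windows. The Ensembl starts of Rpl13a, Rplp2, and Rpl22l1 also lie outside theirs. A window without a run therefore does not show that the mRNA lacks one.
Rpl13a, chr7:45128726-45128755, minus strand: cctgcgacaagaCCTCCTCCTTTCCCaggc
Rplp2, chr7:141447641-141447670, plus strand: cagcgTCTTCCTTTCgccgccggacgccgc
Rpl27, chr11:101442235-101442264, plus strand: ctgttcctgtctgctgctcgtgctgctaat
Rpl9, chr5:65391412-65391441, minus strand: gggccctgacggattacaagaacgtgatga
Rpl22l1, chr3:28805498-28805527, plus strand: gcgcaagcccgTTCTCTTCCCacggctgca
Rps27l, chr9:66946076-66946105, plus strand: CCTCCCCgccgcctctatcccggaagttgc

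In collagen, RP genes were higher than in suspension, mostly by a modest factor. The median log2 difference, as the mean of the 4 collagen groups minus the mean of the 2 suspension groups, was 0.547 over the 73 genes, a factor of 1.46, and 0.00269 over all 13844 genes tested. The difference was above 0 in 72 of the 73 genes, against 50.2% of all genes. With edgeR's quasi-likelihood test at a false discovery rate (FDR) of 0.1 over all genes tested, 25 RP genes rose and 0 fell, while 7.78% of all genes rose and 12.4% fell. At an unadjusted p under 0.05, 38 of the 73 genes passed, beside 27.9% of all genes. With the replicate number as a block, 53 rose, among them all of the 25, and 15.6% of all genes rose. DESeq2 called 36, which also included the 25, beside 10.1% of the genes to which it gave an adjusted p. The large subunit gave 14 of 45 genes with a median of 0.547, and the small subunit 11 of 28 with a median of 0.551.

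The difference had the same sign in each replicate but not the same size. Within replicate 1 the median RP gene was higher in collagen by 0.89 on the log2 scale, within replicate 2 by 0.46, and within replicate 3 by 0.36, with 69, 67, and 65 of the 73 genes above 0. Libraries within suspension were far apart. RP genes took 0.949, 2.05, and 1.84% of the counts in the suspension libraries titled plus CCL19 (replicates 1, 2, and 3) and 0.873, 1.05, and 1.48% in those titled without. In collagen the shares were 1.76, 1.77, and 2% in the 1.7 mg/ml gels, 1.5, 1.6, and 1.2% in those of 2.6 mg/ml, 1.51, 1.91, and 2.07% in those of 3.5 mg/ml, and 1.34, 1.83, and 2.01% in those of 4.4 mg/ml. The groups overlapped, and the lowest 3 shares were all from suspension. In these 3 libraries (both suspension libraries of replicate 1, and replicate 2 of suspension titled without CCL19) 6, 6, and 5 of the 73 genes lay above their mean over the 18 libraries. Without all libraries of replicate 1, 8 RP genes rose, beside 5.46% of all genes, and the median was 0.455. Without replicate 2, 2 rose with a median of 0.607, beside 1.54% of all genes, and without replicate 3, 15 rose, beside 3.61%. Leaving out single libraries gave 10 to 34 calls. With each of the 3 low libraries left out the numbers were 12, 10, and 10, beside 7.57, 7.23, and 6.39% of all genes. The 34 were reached without replicate 3 of suspension titled without CCL19, beside 5.22% of all genes. The 3 low libraries also had the lowest summed DC markers of suspension, at 18700, 17400, and 26900 CPM against 40500 to 50300 CPM in the other 3. They were lowest of suspension in eosinophil markers (146, 132, and 229 CPM) and neutrophil markers (721, 715, and 2420 CPM) as well. In collagen the replicate 1 libraries had DC sums of 23200 to 29200 CPM, with RP shares of 1.34 to 1.76%. The part of these markers in the RP level was not tested.

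**Figure D2:**
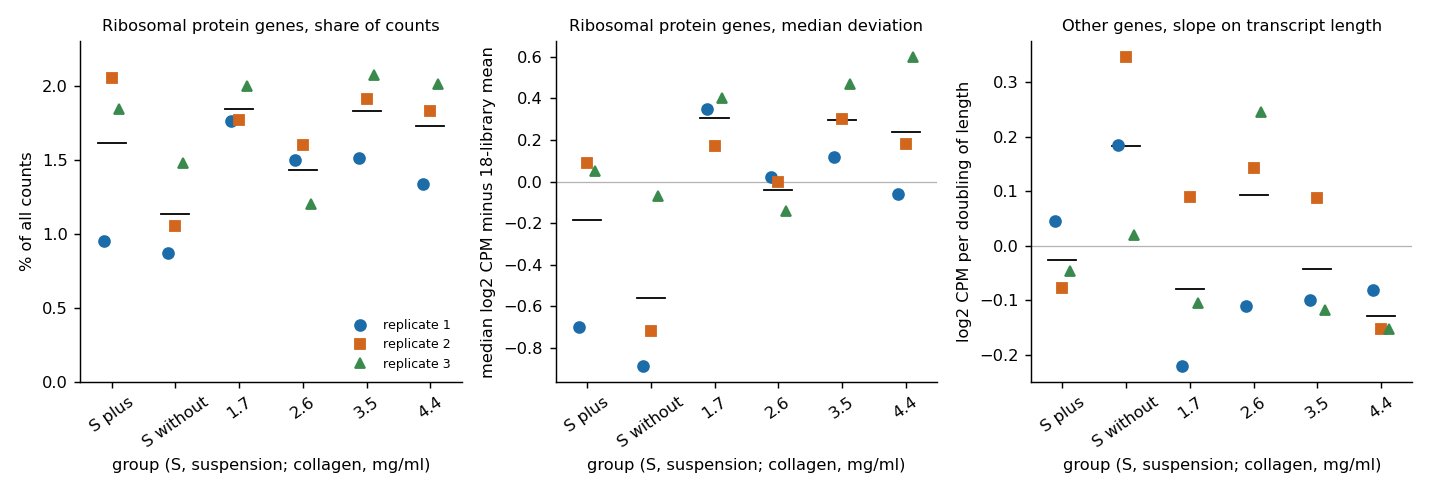
Values of each library by group (points by replicate, lines at the mean of 3): the share of counts in the 73 RP genes, the median RP gene's log2 CPM minus its 18-library mean, and the slope of the same deviation on log2 transcript length over all other genes tested. The 3 lowest shares, 0.873, 0.949, and 1.05%, belong to suspension libraries, and the highest slope, 0.346, to one of them.

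**Figure D3:**
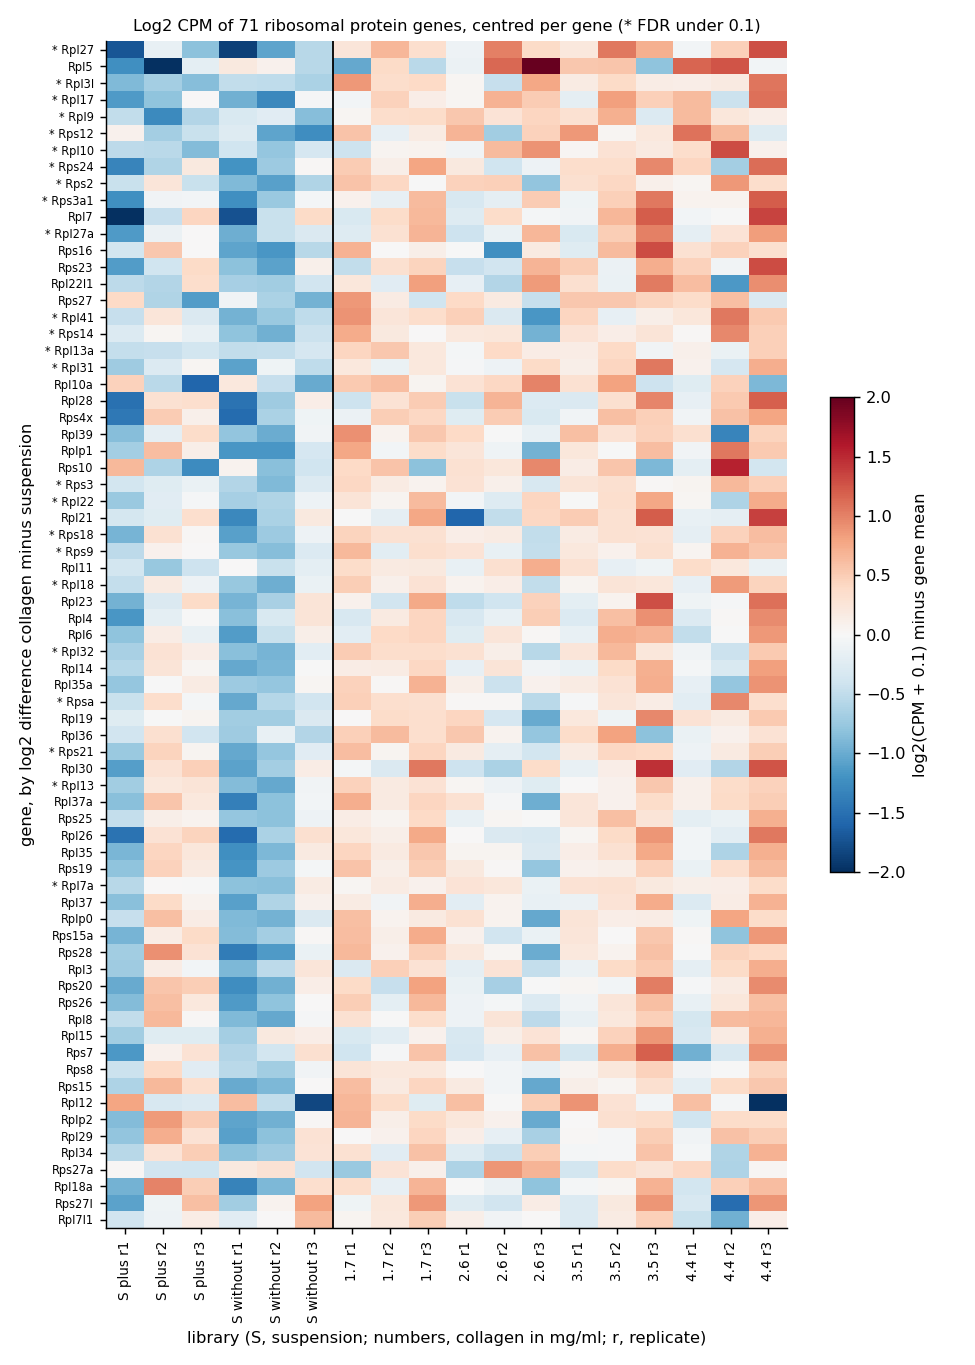
Log2(CPM + 0.1) of 71 of the 73 RP genes in the 18 libraries, centred on each gene's mean, with genes ordered by the log2 difference between collagen and suspension and a line between suspension (left) and collagen. Most genes are low in the same 3 suspension libraries, and an asterisk marks the 24 genes shown that are past an FDR of 0.1.

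The largest rise past the threshold was that of Rpl27, a large subunit protein. Its levels in suspension were 2.25, 6.87, and 4.27 CPM titled plus CCL19 and 2.01, 3.64, and 5.16 CPM titled without. In collagen they were 9.01, 12.1, and 9.62 CPM in 1.7 mg/ml gels, 7.08, 15.4, and 9.94 CPM in 2.6 mg/ml gels, 8.85, 15.9, and 12.5 CPM in 3.5 mg/ml gels, and 7.31, 10.7, and 18.8 CPM in 4.4 mg/ml gels. All collagen libraries lay above all suspension libraries. The log2 difference was 1.51 (SE 0.31, FDR 0.00489), a factor of 2.85, and 0% of the coding windows of Rpl27 are unique.

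Rpl3l and Rpl13a were the other genes whose 12 collagen libraries all lay above the 6 suspension libraries. This occurred in 3 of the 73 RP genes and in 0.506% of all genes tested. Rpl3l, a variant of the peptidyl transferase centre protein Rpl3, ranged from 2.91 to 3.83 CPM (median 3.42) in suspension and from 3.9 to 11.5 CPM (median 6.56) in collagen. Its log2 difference was 1.08 (SE 0.23, FDR 0.00703). Rpl13a, a large subunit protein known for a separate role in silencing inflammatory mRNAs, ranged from 23.3 to 26 CPM (median 23.7) in suspension and from 30 to 47.6 CPM (median 37.2) in collagen. The difference of 0.67 (SE 0.15, FDR 0.00804) was smaller than that of Rpl27. The SD of Rpl13a was 1.13 CPM over the 6 suspension libraries and 6.02 CPM over the 12 collagen libraries.

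Rpl17, Rpl9, and Rps12 completed the 5 largest rises. Rpl17 rose by 1.05 (SE 0.32, FDR 0.0383), Rpl9 by 0.94 (SE 0.22, FDR 0.0109), and Rps12 by 0.93 (SE 0.29, FDR 0.0432) on the log2 scale. None of the 3 has a unique coding window. Rpl10, which joins late in assembly and completes the peptidyl transferase centre, rose by 0.9 (SE 0.22, FDR 0.0136) from 6.66 ± 0.945 CPM (SD, n = 6) to 12.7 ± 4.71 CPM (SD, n = 12).

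Of the 13 RP genes with at least 50% unique coding windows, a split made after seeing the data, 7 rose and the median was 0.537, and of the 60 others 18 rose with a median of 0.548. Of all genes tested 7.78% rose. With an offset for transcript length 3 of the 13 rose, beside 9.14% of all genes, and their median was 0.206. Of the 60, 7 rose with this offset, and the median of the 60 was 0.348. With the replicate block 8 of the 13 and 45 of the 60 rose, beside 15.6% of all genes. Among the 7 of the 13 that rose as counted were Rpl3l, Rpl22, Rpl32, Rps3, Rps9, and Rps21. Rps3, which lines the mRNA entry channel and also takes part in DNA repair, was at 726 ± 131 CPM (SD, n = 6) in suspension and at 1120 ± 191 CPM (SD, n = 12) in collagen. Its log2 difference was 0.62 (SE 0.17, FDR 0.0206). Rpl8 ranged from 494 to 1570 CPM in suspension and from 699 to 1580 CPM in collagen, and its difference of 0.4 (SE 0.23, FDR 0.281) did not pass.

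The stalk proteins, which recruit translation factors, did not pass the test. The log2 difference was 0.45 (SE 0.23, FDR 0.209) for Rplp0, 0.63 (SE 0.26, FDR 0.118) for Rplp1, and 0.29 (SE 0.26, FDR 0.516) for Rplp2. With the replicate block Rplp1 passed (0.65, FDR 0.0591), and the FDR was 0.134 for Rplp0 and 0.329 for Rplp2. In suspension their levels were spread widely, from 838 to 2450 CPM for Rplp0 and from 509 to 1760 CPM for Rplp1. Rpsa, a small subunit protein also known as the laminin receptor, rose from 24.1 ± 7.98 CPM (SD, n = 6) to 34.3 ± 9.22 CPM (SD, n = 12), with a difference of 0.53 (SE 0.19, FDR 0.0813). This call was lost in 15 of 21 fits that left out libraries.

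Of the proteins that bind Mdm2 when ribosome assembly fails, Rpl5 and Rpl11 did not pass with edgeR, and both passed with DESeq2 (adjusted p = 0.0638 and 0.0556). Rpl5 was counted at 0 to 0.85 CPM in suspension and at 0.308 to 3.83 CPM in collagen, and its difference of 1.25 had an SE of 0.55 (FDR 0.147). Rpl11 had a difference of 0.57 (SE 0.24, FDR 0.13), and with the block its FDR was 0.0833. Rpl26, which binds the p53 mRNA, had 0.48 (SE 0.31, FDR 0.331), and with the block it passed (FDR 0.0596). Rps19 and Rps14 are small subunit proteins whose loss causes anemia. Rps14 rose by 0.68 (SE 0.21, FDR 0.0417), and Rps19 had a difference of 0.47 (SE 0.23, FDR 0.19) that passed with the block (FDR 0.0764). Rps27a, made as a fusion with ubiquitin, had 0.22 (SE 0.31, FDR 0.686), and -0.06 with a correction for transcript length.

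Variants of RPs did not follow their parent genes in every case. Rps27l, a p53 target and close relative of Rps27, ranged from 91.1 to 336 CPM (suspension) and from 66.7 to 356 CPM (collagen), with a difference of 0.07 (SE 0.33, FDR 0.918) that was -0.25 with a correction for transcript length. Rps27 had 0.72 (SE 0.32, FDR 0.147), on counts of 0.913 to 3.93 CPM. Rpl7l1, a nucleolar relative of Rpl7, was the 1 RP gene with a difference below 0, at -0.02 (SE 0.19, FDR 0.95), though above 0 with DESeq2 or its size factors (0.003 and 0.004). Rpl7 had 0.78 (SE 0.37, FDR 0.181). Rpl22l1, which binds RNA and can replace Rpl22, had 0.73 (SE 0.31, FDR 0.138), and Rpl22 rose by 0.61 (SE 0.22, FDR 0.0701). The Rpl22 call was lost in 10 of 21 fits that left out libraries. With the block Rpl22l1 passed at 0.64 (FDR 0.02), as did Rps27 at 0.77 (FDR 0.0301) and Rpl7 at 0.96 (FDR 0.0031). Rpl39, which lines the exit tunnel, had 0.63 (SE 0.26, FDR 0.12), and Rpl3, the parent of Rpl3l, had 0.43 (SE 0.22, FDR 0.222). With the block both passed, at FDRs of 0.0404 and 0.0484. Differences between a variant and its parent were not tested.

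Transcript length moved with the comparison. RP transcripts are short, with a median of 802 bases against 2532 bases for all genes tested, and 70 of the 73 lay below the latter. In the shortest decile of genes (57 to 908 bases) the median log2 difference of all other genes was 0.333, in the next decile (909 to 1298 bases) it was 0.185, and in the longest decile it was -0.142. The 45 RP genes in the shortest decile had a median of 0.528, and 16 of them rose. The 18 RP genes of the next decile had a median of 0.639 with 6 that rose, while 7.9 and 6.29% of the other genes rose in these deciles. The slope of log2 CPM on log2 length was 0.0787 ± 0.159 in suspension (SD, n = 6) and -0.0393 ± 0.144 in collagen (SD, n = 12), a difference of 0.118 that did not pass an exact permutation test (two-sided, p = 0.131, also 0.131 after adjustment over 2 library measures). It was larger in suspension within each replicate, by 0.243, 0.0922, and 0.0192. The other measure, the share of counts in 8 mitochondrial protein-coding genes, was 0.746 ± 0.404% in suspension (SD, n = 6) and 1.08 ± 0.273% in collagen (SD, n = 12), with p = 0.0551 in the same exact test (0.11 adjusted). Within replicates 1, 2, and 3 suspension minus collagen was -0.191, -0.251, and -0.554 percentage points. The exact tests did not use the pairing by replicate.

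With each library's length dependence removed by an offset, the median RP difference was 0.335, 68 of 73 genes stayed above 0, and 10 rose, beside 9.14% of all genes. The 10 were Rpl27, Rpl3l, Rpl17, Rpl10, Rpl9, Rps2, Rpl22, Rps3, Rpl13a, and Rpsa, all of them among the 25. The difference of Rpl27 was then 1.25 (FDR 0.0175) and that of Rpl13a 0.52 (FDR 0.0542). Of the 10 RP transcripts longer than 1298 bases, 3 had risen as counted (Rps3, Rpl22, and Rpsa). Rps3, of 1908 bases, had 0.63 (FDR 0.0107) with the offset, and Rpl22, of 2048 bases, had 0.64 (FDR 0.0512). The longest were Rps15a with 5130 bases and Rps20 with 3706, in the transcript chosen for each gene, of which 390 and 357 were coding. They did not pass as counted, with 0.45 and 0.43 (FDR 0.254 and 0.372), or with the offset, with 0.55 and 0.52 (FDR 0.229 and 0.304). With the replicate block and no offset Rps15a was among the genes that rose and Rps20 was not. With the offset Rps12 had 0.52 (FDR 0.238). Rps24, a small subunit protein that had risen by 0.86 (FDR 0.0549), had 0.52 with the offset (FDR 0.18). With offsets for GC content and length 13 RP genes rose, with a median of 0.404, beside 9.54% of all genes. With the replicate block as well, 35 rose, with a median of 0.411, beside 19% of all genes, and 1 fell, which was Rps27l (-0.43, FDR 0.0501).

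**Figure D4:**
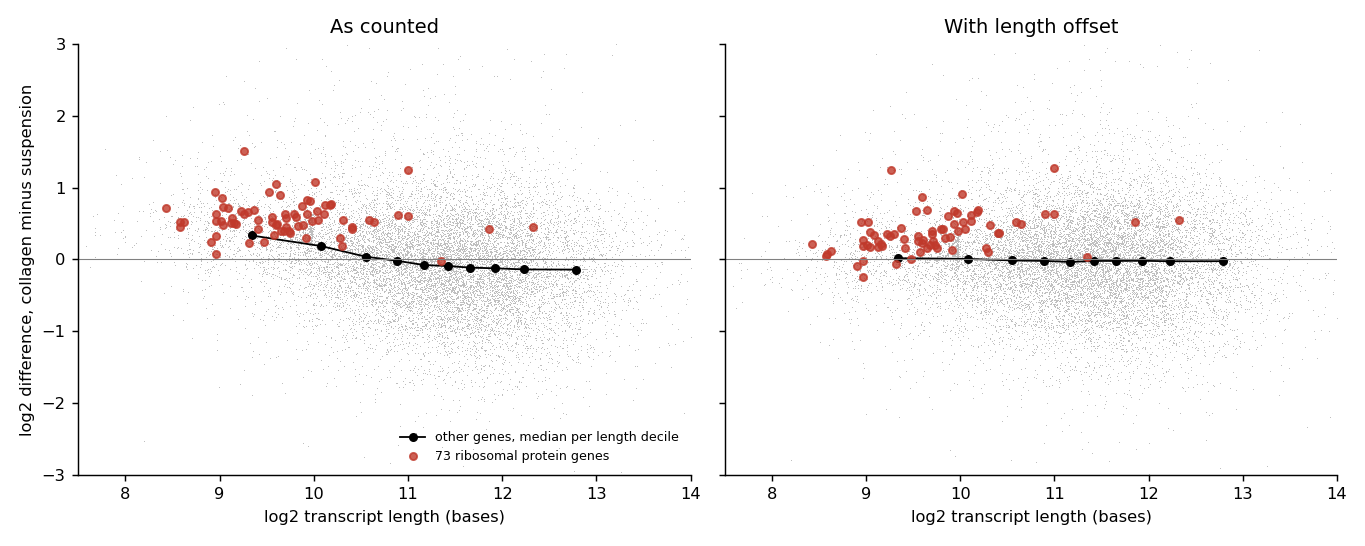
Log2 difference between collagen and suspension against log2 transcript length for all genes tested (gray), for the median of the other genes in each length decile (black), and for the 73 RP genes (red), as counted and with the length offset. As counted, the black line falls from 0.333 to -0.142, and with the offset it lies near 0 while 68 RP genes remain above 0.

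**Figure D5:**
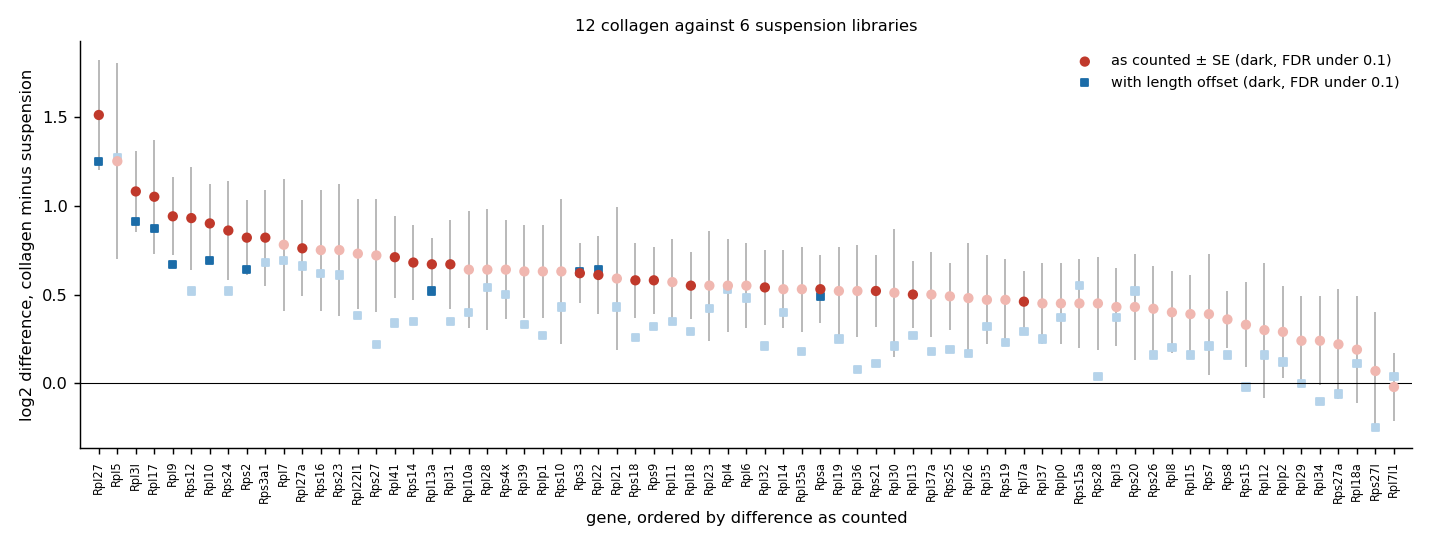
Log2 difference between 12 collagen and 6 suspension libraries for 71 of the 73 RP genes, as counted (circles, with SE) and with the length offset (squares), where dark symbols are past an FDR of 0.1. There are 24 dark circles and 10 dark squares, and only Rpl7l1 lies below 0 as counted.

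Each density was also compared with suspension, and these 4 comparisons share their suspension libraries. At 1.7 mg/ml the median RP difference was 0.62 with 73 of 73 genes above 0, but 0 genes were called, beside 0.0361% of all genes. At an unadjusted p under 0.05, 25 of 73 passed, beside 8.04% of all genes, and with the length offset 9 passed, beside 7.38%, with a median of 0.349. DESeq2 called 2, Rpl3l and Rpl13a, beside 0.373% of genes. With the block 8 rose, beside 1.5% of all genes. At 2.6 mg/ml the median was 0.279 with 64 genes above 0, but within the replicates it was 0.83, 0.18, and -0.23, with 30 genes above 0 in replicate 3. Without replicate 1 it was 0.085, with 39 genes above 0. Here Rpl5, Rpl27, Rpl10, Rpl9, and Rpl13a rose, beside 4.29% of all genes, and with the block 12 rose beside 12% of all genes. At 3.5 mg/ml the median was 0.656 and Rpl27 was the 1 gene called, beside 1.97% of all genes, with DESeq2 calling 10, beside 3.73%. With the block 37 rose there, beside 8.03% of all genes. At 4.4 mg/ml the median was 0.612 and 15 genes rose, beside 6.55% of all genes, and with the block 34, beside 15.8%. With the length offset 4 rose at 4.4 mg/ml (Rpl27, Rpl3l, Rps3, and Rpsa), beside 7.89% of all genes, and the median was 0.246 with 58 genes above 0.

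No linear trend of RP levels with gel density passed the test. The median deviation from the 18-library mean was 0.31 ± 0.12 for 1.7, -0.04 ± 0.09 for 2.6, 0.3 ± 0.18 for 3.5, and 0.24 ± 0.33 for 4.4 mg/ml (log2, SD, n = 3 each), so the 2.6 mg/ml group was the lowest of the 4. The libraries of that group also had a median length slope of 0.143, against -0.104, -0.099, and -0.153 in the other collagen groups. Its slopes were -0.11, 0.143, and 0.245 in replicates 1, 2, and 3, with median RP deviations of 0.02, 0, and -0.14. Elsewhere in collagen the slope was positive only in replicate 2 of the 1.7 and 3.5 mg/ml gels (0.09 and 0.087), with deviations of 0.17 and 0.3. With the length offset the median RP differences from suspension were 0.349, 0.231, 0.435, and 0.246 from the lowest to the highest density. The 2.6 mg/ml group was still the lowest. With GC and length offsets they were 0.372, 0.314, 0.46, and 0.305, so 2.6 mg/ml was then not the lowest. The part of the length slope in the RP level of that group was not tested further. In the linear trend over the 4 densities edgeR and DESeq2 called 0 RP genes, as did edgeR with the block, while of all genes 0.00722% were called with edgeR, 0.874% with DESeq2, and 1.45% with the block. At an unadjusted p under 0.05, 0 RP genes passed, beside 7.2% of all genes, and 1 with the block, beside 14%. The median slope was 0.0515 per mg/ml on the log2 scale, within the 3 replicates it was -0.12, 0.04, and 0.15, and with the length offset it was -0.00801. Rpl27 had a slope of 0.11 (SE 0.16, FDR 0.99), Rpl10 0.21 (SE 0.12, FDR 0.811), and Rpl7l1 -0.19 (SE 0.11, FDR 0.797).

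Between the suspension groups, titled plus minus titled without CCL19, edgeR called 0 RP genes with and without the block, and DESeq2 called 0. At an unadjusted p under 0.05, 3 of 73 passed, beside 6.18% of all genes, 6 passed with DESeq2, beside 3.62% of the genes with a p, and 15 with the block, beside 14.2%. The share of all genes called was 0%. The median RP difference of 0.417 was 0.83 within replicate 2, 0.22 within replicate 1, and 0.17 within replicate 3. With the length offset the median was 0.12, and with GC and length offsets it was 0.0683. The length slope of these replicate 2 libraries was -0.077 and 0.346.

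Other parts of the translation machinery were described by lists chosen for their roles. Of 22 other mRNAs known to begin with a pyrimidine run, all tested, 6 rose and 0 fell, where 7.78% of all genes rose and 12.4% fell. Their median was 0.414, and these transcripts are longer, with a median of 1829 bases. Eef1b2, a subunit of an elongation factor, had 0.56 (SE 0.2, FDR 0.071), Eif4a2, a helicase of translation initiation, 0.59 (SE 0.2, FDR 0.0597), and Tpt1, the translationally controlled tumor protein, 0.76 (SE 0.27, FDR 0.0736). With the length offset 4 of the 22 rose, beside 9.14% of all genes, and the median was 0.363. With the replicate block 12 of the 22 rose, beside 15.6% of all genes.

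Mitochondrial RP genes did not share the RP difference as a group. Of 78 tested, 2 rose and 2 fell, where 7.78% of all genes rose and 12.4% fell. The median was 0.0254, and 40 were above 0. Mrps6 rose by 1.38 (SE 0.18, FDR 0.000479) and Mrpl45 by 1.06 (SE 0.2, FDR 0.00347), while Mrpl10 had -0.82 (SE 0.18, FDR 0.00702). Of 40 ribosome biogenesis genes 1 rose and 2 fell, beside the same 7.78 and 12.4% of all genes, with a median of -0.124. Gnl3, a nucleolar GTPase, rose by 1.44 (SE 0.24, FDR 0.00145), and Ubtf, a factor of RNA polymerase I transcription, had -0.98 (SE 0.21, FDR 0.0057), as did Rrp12 with -0.61 (SE 0.21, FDR 0.0632). Of 10 tested hosts of small nucleolar RNAs 2 rose, beside 7.78% of all genes. Snhg1 rose by 1.04 (SE 0.3, FDR 0.0296) and Snhg8 by 0.72 (SE 0.28, FDR 0.0972). With the length offset 0 of these hosts were called, where 9.14% of all genes rose. With the replicate block 6 mitochondrial RP genes rose and 7 fell, 4 biogenesis genes rose and 8 fell, and 6 of the small nucleolar RNA hosts rose, where 15.6% of all genes rose and 19.3% fell.

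Regulators of RP synthesis moved in both directions. Of 21 tested, 5 rose and 6 fell, where 7.78% of all genes rose and 12.4% fell. With the length offset 5 rose and 4 fell, where 9.14% of all genes rose and 11.7% fell. Eif4e, the cap-binding factor, rose by 1.42 (SE 0.28, FDR 0.00384) from 28.6 ± 7 CPM (SD, n = 6) to 77 ± 32.5 CPM (SD, n = 12). The mTOR complex gene Rptor had -1.29 (SE 0.19, FDR 0.000809), Mtor had -0.8 (SE 0.18, FDR 0.00904), and Eif4ebp2, an inhibitor of Eif4e, had -0.97 (SE 0.14, FDR 0.000806). With the length offset these were 1.16 (FDR 0.00602) for Eif4e, -1.21 (FDR 0.00071) for Rptor, -0.7 (FDR 0.00274) for Mtor, and -0.87 (FDR 0.00191) for Eif4ebp2. Larp1 had -0.26 (SE 0.19, FDR 0.389). The 56 RP pseudogenes named with -ps that passed the filter on low counts had a median of 0.569. Of these 1 rose, beside 7.78% of all genes, and 4 with the replicate block, beside 15.6%. Adding the counts of 245 pseudogenes named with -ps to their parent genes gave 27 RP genes that rose, beside 7.82% of all genes. Pseudogenes with other names were not added.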

How the data were processed

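RNA-seq was done on 18 libraries, 3 in each of 6 groups, as 50-base single-end reads from a stranded mRNA kit. The authors deposited raw counts per gene, and per the labels and methods reads were aligned with STAR 2.7.0f to GRCm38. The methods name RSEM for expression values in TPM, which were not used here. Whether it also made the deposited counts, and how reads matching more than 1 gene were treated, is not given in the sources used here. Libraries held 13062944 to 28059839 counts.

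Differences were tested with edgeR 4.0.16 (quasi-likelihood test, TMM, filterByExpr, group means over all 18 libraries) in R 4.3.3 at a Benjamini-Hochberg FDR of 0.1. Collagen was compared with suspension as a whole and per density, a linear trend was fitted over density, and the suspension groups were compared. Alternatives were DESeq2 1.42.0, its size factors, TMM without RP genes, no filter, and a replicate block. Others were offsets from loess fits (span 0.5) on transcript length or on GC content and length. The rest added counts of pseudogenes named with -ps to parents, used an FDR of 0.05, or left out libraries. The tests were run on simulated data with less spread than these libraries and no replicate effect, so that check does not cover their spread. Transcript lengths and windows came from the Ensembl release 96 annotation. CPM values in the text use TMM library sizes, and the 1 CPM limit uses total counts.

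Same-numbered libraries share a date and lane in their names and biological replicate numbers in their titles. Their deviations from group means had a mean correlation of 0.434 (39 of 45 pairs above 0.1, lowest -0.149), against -0.259 between different numbers. Deviations from a mean of 3 replicates sum to 0, so the -0.259 is not independent of the 0.434. Because same-numbered libraries share a date and lane and varied together, the block is given beside results whose call it changes. How many mice or cultures gave a replicate is not given in the sources used here, so p-values measure the spread between these samples.

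The members and lists were chosen with earlier results of these data known. RP genes named are variants and their parents, genes with known separate roles, the 5 largest rises past the threshold with 1 sign in all 3 replicates, the 3 highest and 3 lowest levels per kb, and the 3 largest SDs (Rpl5, Rpl27, and Rpl7). Up to 3 genes of every other list were taken by smallest p, and further genes (Rplp0, Rpl8, Rpl21, Rpl13a, Rps24, and Larp1) were named after their values were seen. Some genes that entered the fits and counts are not reported here by name, and 2 of them are not drawn.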

Additional observations from a re-analysis of the deposited data

Results flagged for a closer look

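Rpl22l1 in suspension had 1 library far from the others. It was at 20.2 CPM in replicate 3 of suspension titled plus CCL19 and at 9.75 to 12.1 CPM in the other 5 libraries, and the gap made up 0.773 of the range of the 6, above Dixon's 95% critical value. Of 31 values checked this way 1 passed, and chance passes about 1 in 20. Without this library the log2 difference between collagen and suspension was 0.91, against 0.73 with it. The cause was not tested.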

How the results depend on the processing

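RP genes that rose in collagen numbered 25, and 10 with no filter, with the length offset or at an FDR of 0.05, 13 with GC and length offsets, 53 with the replicate block, and 2 to 34 with libraries left out. The number of all genes that rose also moved with the setting. It was 1077, and 1062 with no filter, 1266 with the length offset, 1321 with GC and length offsets, and 2158 with the block. In the fits with libraries left out that gave 2 and 34 RP genes, it was 217 and 754. Counts of RP genes at an FDR of 0.05 are given without those of all genes, so they cannot be set against a share. At 1.7 mg/ml (0, beside 5 of all genes) there were 2 with DESeq2, 8 with the replicate block and 5 with block, GC and length. These stood beside 53, 207, and 427 of all genes. At 2.6 mg/ml (5, beside 594 of all genes) there were 2 with no filter, 12 with the block, 21 with block, GC and length, 1 at an FDR of 0.05, and 0 to 6 with libraries left out. Of all genes 879 rose there with no filter, 1658 with the block, and 2072 with block, GC and length. With libraries left out, the 6 stood beside 630 of all genes, and the fits with 0 stood beside 0 to 223. At 3.5 mg/ml (1, beside 273 of all genes) there were 10 with DESeq2, 2 with its size factors or GC and length, 4 with no filter, 37 with the block, 27 with block, GC and length, and 0 to 3 with libraries left out. Of all genes 530 rose there with DESeq2, 311 with its size factors, and 339 with GC and length. The numbers were 371 with no filter, 1112 with the block, and 1318 with block, GC and length. With libraries left out, the 3 stood beside 361 of all genes, and the fits with 0 stood beside 0 to 109. At 4.4 mg/ml (15, beside 907 of all genes) there were 7 with no filter or at an FDR of 0.05, 34 with the block, 4 with the length offset, 6 with GC and length, and 0 to 19 with libraries left out. Of all genes 1261 rose there with no filter, 2181 with the block, 1092 with the length offset, and 1237 with GC and length. With libraries left out, the 0 stood beside 76 of all genes and the 19 beside 788. The median trend turned to -0.00801 with length, -0.00859 with GC and length, and -0.0121 with the block added, and ran from -0.026 to 0.134 with libraries left out. With length, GC and length, and block, GC and length, Rps27l had -0.252, -0.479, and -0.435, Rpl7l1 0.04, 0.019, and 0.03, and Rps27a -0.063, -0.146, and -0.169. Rpl22l1 had -0.01 with GC and length and -0.018 with the block added, Rps15 -0.018 with length, and Rpl7l1 0.003 with DESeq2 and 0.004 with its size factors. With libraries left out Rps27l ran from -0.132 to 0.301 and Rpl7l1 from -0.108 to 0.117. The cause of these shifts was not tested. Genes at a few CPM, such as Rpl5, are limited by depth.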
